A study of Mus musculus with 28 samples.

Results

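The 8 oligoadenylate synthetase genes followed here are Oas1a, Oas1b, Oas1c, Oas1g, Oas2, Oas3, Oasl1 and Oasl2, chosen by gene symbol through their Ensembl identifiers. Each matched 1 identifier in both deposited count tables, which list 15423 and 56941 genes. All 8 passed the filter on low counts in both. Messenger RNA was sequenced from 28 libraries of mouse bone marrow-derived macrophages, primary cells grown from marrow that carry Irgm1 or lack it. Irgm1 is an interferon-inducible GTPase linked to autophagy and mitochondrial quality control.

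The first experiment holds 3 genotypes with 4 libraries each, named Irgm_IFNAR-KO, Irgm1-KO and WT. The Irgm_IFNAR-KO cells lack Irgm1 together with IFNAR, the receptor for type I interferon, and no group lacks the receptor alone, so the effect of receptor loss was measured only in cells that also lack Irgm1. The second experiment holds 4 groups with 4 libraries each: Irgm1KO fenofibrate, Irgm1KO control, WT fenofibrate and WT control. Fenofibrate, an agonist of the nuclear receptor PPAR alpha, was used at 50 µM; neither its duration nor what the control cells received is stated in the sources used here. Marrow came from male and female mice aged 2 to 4 months whose mutant lines had been backcrossed to C57BL/6. Every culture had 6 days in medium conditioned by L929 cells, a source of macrophage growth factor, and then 24 h without it. The labels do not say that libraries of a group came from separate animals. The p-values therefore reflect only how far these libraries spread, which may be in part technical. Within groups of the second experiment Xist, a transcript of female cells, varied widely. Its log2 deviations from the group mean were 5.30, -6.00, 6.71 and -6.00 in WT fenofibrate libraries. Such a group mixes libraries of unlike sex, and the number of animals behind each group is not given.

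Oligoadenylate synthetases are cytosolic enzymes that bind double-stranded RNA and join ATP into short 2′-5′-linked oligoadenylates. These oligoadenylates act as second messengers of antiviral defence. The genes are classical targets of type I interferon: the receptor IFNAR signals through the kinases Jak1 and Tyk2, and a complex that holds Stat2 and Irf9 binds interferon-stimulated response elements in promoters. In mice the Oas1 gene is expanded into a cluster of copies, so that one human gene corresponds to several mouse ones.

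Csf1r, the receptor by which macrophages sense their growth factor, had group means between 1837 and 3203 CPM, a count scaled to equal library size. In the second experiment 3 of 3 B cell markers were listed and summed to at most 0.119 CPM per library, and 4 of 4 T and natural killer cell markers to at most 0.0313 CPM. Libraries of the first experiment held 48652844 to 70455339 counts, and those of the second held 82362311 to 120844616. In Irgm1-KO cells Irgm1 reads were reduced but not absent, with a log2 fold change of -0.77 ± 0.102 (SE) against WT. In the second experiment its log2 fold change was -0.65 ± 0.0542, and that of Ifnar1 in Irgm_IFNAR-KO against WT cells was -0.50 ± 0.188 (adjusted p = 0.119, edgeR quasi-likelihood test). Reads outside a deleted part still count towards a gene, so these values do not test the alleles.

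All 8 genes lie on chromosome 5. Promoter windows, from 250 bases before to 50 bases after the gene start, were held by RefSeq (GRCm38.p6) for 6 of them. Of these, 4 are shown: Oas1a, Oas1g and Oas1c, because they share a sequence element, and Oasl1, because it had the largest rise of the family in cells lacking Irgm1. They lie at chr5:120907476-120907775 (Oas1a, minus strand), chr5:120887564-120887863 (Oas1g, minus strand), chr5:120812465-120812764 (Oas1c, minus strand) and chr5:114922990-114923289 (Oasl1, plus strand). Each reads 5′ to 3′ on the gene's own strand, and capitals mark every match, on either strand, to the core of an interferon-stimulated response element, spelled GAAA, any 2 bases, GAAA.
Oas1a: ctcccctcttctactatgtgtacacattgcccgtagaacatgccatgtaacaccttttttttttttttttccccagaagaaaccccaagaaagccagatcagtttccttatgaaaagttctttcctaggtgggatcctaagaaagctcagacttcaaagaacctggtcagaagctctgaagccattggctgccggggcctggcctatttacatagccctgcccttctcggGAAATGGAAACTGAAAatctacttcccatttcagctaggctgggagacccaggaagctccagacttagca
Oas1g: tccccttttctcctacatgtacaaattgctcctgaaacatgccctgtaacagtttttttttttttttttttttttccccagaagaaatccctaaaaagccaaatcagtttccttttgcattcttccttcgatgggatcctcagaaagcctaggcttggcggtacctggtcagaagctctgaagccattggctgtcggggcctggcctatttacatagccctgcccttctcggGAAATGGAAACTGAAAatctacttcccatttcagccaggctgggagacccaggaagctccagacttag
Oas1c: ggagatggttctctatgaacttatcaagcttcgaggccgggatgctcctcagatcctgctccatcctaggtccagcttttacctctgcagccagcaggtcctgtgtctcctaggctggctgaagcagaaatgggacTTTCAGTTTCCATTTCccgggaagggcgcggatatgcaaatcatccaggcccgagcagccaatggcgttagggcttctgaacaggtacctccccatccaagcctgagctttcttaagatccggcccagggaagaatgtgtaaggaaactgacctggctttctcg
Oasl1: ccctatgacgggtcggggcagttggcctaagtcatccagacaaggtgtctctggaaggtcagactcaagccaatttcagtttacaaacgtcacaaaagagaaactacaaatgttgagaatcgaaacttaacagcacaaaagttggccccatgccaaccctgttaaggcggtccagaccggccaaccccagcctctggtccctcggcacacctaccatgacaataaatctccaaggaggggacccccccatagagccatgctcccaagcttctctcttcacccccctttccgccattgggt

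In Oas1a and Oas1g the capitals hold overlapping matches to this core just before the gene start, within an identical run of 19 bases, CGGGAAATGGAAACTGAAA, at positions -23 to -5 in Oas1a and -21 to -3 in Oas1g. The same 19 bases stand in the Oas1c window on the other strand, as TTTCAGTTTCCATTTCCCG, at positions -114 to -96. Of 32851 RefSeq promoter windows, 3 held this run on either strand, namely these. Oas1b starts 121 bases from Oas1c on the opposite strand in the GENCODE M21 annotation. If RefSeq and GENCODE place the Oas1c start at the same base, the Oas1b start falls inside the Oas1c window. The 19 bases would then lie between both starts and read as written on the Oas1b strand. The starts in these annotations were not compared. Oas3 also held a match, at -75 to -66. Neither Oasl1 nor Oasl2 did. The core was thus in 4 of 6 windows of the family and in 3.44% of all promoter windows. The same core followed by C was in 3 of 6 and in 0.819% of all, and the shorter AANNGAAA, which overlaps both, was in 5 of 6, Oasl1 among them, and in 23.9% of all. Over their whole length the Oas1a and Oas1g windows were 85.3% identical. A match describes these letters and was not tested as a binding site.

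In Irgm1-KO cells all 8 genes were higher than in WT cells, and the family held very different increases. Oasl1 is a synthetase-like protein with ubiquitin-like domains that, in mice, lacks synthetase activity and limits translation of Irf7. It had 775, 754, 649 and 676 CPM in the 4 Irgm1-KO libraries, against 36.3, 36.5, 37.9 and 32.2 CPM in the 4 WT libraries. The groups were far apart, and Oasl1 was 20.0-fold higher (log2 fold change 4.32 ± 0.112 SE, adjusted p = 5.72e-10, edgeR quasi-likelihood test with Benjamini-Hochberg adjustment over all genes). Oasl2, its relative that keeps synthetase activity in mice, had 1068, 1084, 904 and 1017 CPM in Irgm1-KO libraries and 462, 344, 444 and 441 CPM in WT libraries. The groups did not overlap, and the rise was 2.41-fold (log2 fold change 1.27 ± 0.0989).

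Among the synthetases proper, Oas3, the largest enzyme of the family and one that prefers long double-stranded RNA, had 1619, 1622, 1137 and 1453 CPM in Irgm1-KO libraries and 436, 243, 340.0 and 348 CPM in WT libraries. Its lowest Irgm1-KO library was still above its highest WT library, with a log2 fold change of 2.09 ± 0.184. Oas2, which like Oas3 is built of repeated synthetase units, had 104, 94.9, 71.6 and 86.1 CPM in Irgm1-KO libraries and 38.4, 17.2, 32.6 and 31.0 CPM in WT libraries (log2 fold change 1.58 ± 0.245). WT replicate 2 was the lowest WT library for both genes.

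Oas1a, an active short synthetase, had 274, 286, 462 and 309 CPM in Irgm1-KO libraries and 85.2, 155, 120.3 and 109.5 CPM in WT libraries, a log2 fold change of 1.50 ± 0.225. Oas1g, its close copy, had 91.0, 90.0, 162 and 99.0 CPM in Irgm1-KO libraries and 17.5, 35.0, 24.0 and 20.5 CPM in WT libraries, a log2 fold change of 2.19 ± 0.288. For both genes Irgm1-KO replicate 3 and WT replicate 2 were the highest of their groups, and the groups did not overlap. Reads of these copies cannot all be told apart: 40.9% of the 100-base runs of Oas1a transcripts, the read length of this experiment, and 57.6% of its 50-base runs, that of the second experiment, also occur in other genes. At both lengths all of these runs occur in Oas1g, and how such reads were counted is not given in the sources used here.

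Oas1b is known for resistance to flaviviruses in wild mice; in C57BL/6 it carries a premature stop, and the annotation lists it as a polymorphic pseudogene. It had 28.2, 26.8, 31.3 and 24.6 CPM in Irgm1-KO libraries and 4.25, 4.13, 4.66 and 3.52 CPM in WT libraries. That difference, a log2 fold change of 2.75 ± 0.116, was the largest after Oasl1. Oas1c, another copy of the cluster, had 17.7, 18.3, 25.0 and 19.6 CPM in Irgm1-KO libraries and 7.82, 10.2, 8.80 and 10.2 CPM in WT libraries, with the smallest log2 fold change of the family, 1.13 ± 0.141.

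The adjusted p-values of the other 7 genes ran from 1.27e-08 to 2.66e-04 (edgeR quasi-likelihood test). The count of 8 of 8 higher stands beside 19.8% of all 13998 tested genes called higher at an adjusted p under 0.05, and the median log2 fold change of the family was 1.84, beside -0.02 over all tested genes. In bulk RNA, fewer cells of a type and less RNA per cell cannot be told apart. The 7 macrophage markers summed to 9339 to 14500 CPM in Irgm1-KO libraries and 20977 to 41276 CPM in WT libraries. Lyz2, the lysozyme gene, carried most of that gap, with 5555 ± 2291 CPM in Irgm1-KO and 23184 ± 8751 CPM in WT cells (SD, n = 4 each). Of the 7, Mertk was higher, Adgre1 and Lyz2 were lower, and 4 were not called, with a median log2 fold change of -0.18.

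Markers of other cells were measured beside this comparison. Of 7 neutrophil markers 6 were listed and summed to 5.14 to 9.38 CPM in Irgm1-KO and 15.002 to 38.6 CPM in WT libraries. The 4 dendritic cell markers summed to 3.03 to 4.19 CPM in Irgm1-KO and 2.39 to 3.39 CPM in WT libraries. Of 4 plasmacytoid dendritic cell markers 3 were listed, without Siglech, and summed to 1122 to 1486 CPM in Irgm1-KO and 437 to 535 CPM in WT libraries. Most of that sum was Bst2, itself an interferon-inducible gene, with 1178 ± 177 CPM in Irgm1-KO and 395 ± 57.1 CPM in WT cells, while Tcf4 of the same list was lower (log2 fold change -0.44 ± 0.131). The part of any of these markers in the result was not tested.

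**Figure D1:**
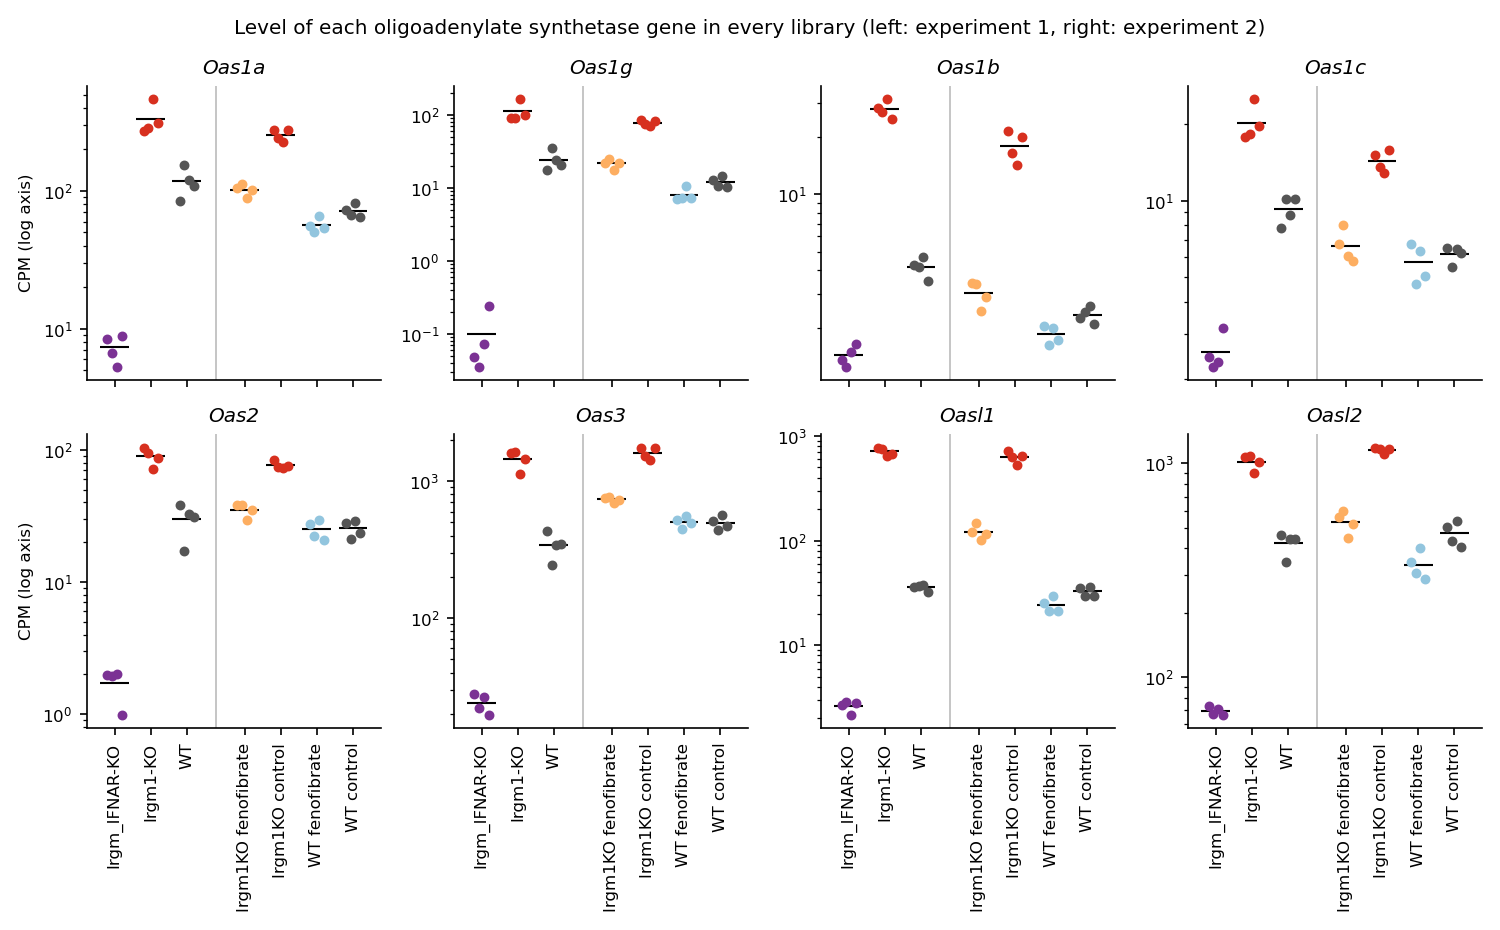
Level of each gene in every library, in CPM on a log axis, with a panel per gene; points are libraries, short lines are group means, and the vertical line parts the experiments. In all 8 panels the 4 Irgm1-KO libraries lie above the WT libraries and the 4 Irgm_IFNAR-KO libraries lie below them. The share of all genes that separate in this way was not computed.

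When the interferon receptor was missing as well, every gene fell below its WT level. Oasl1 had 2.70, 2.89, 2.17 and 2.83 CPM in Irgm_IFNAR-KO libraries, which is 269-fold below Irgm1-KO cells (log2 fold change -8.07 ± 0.134, adjusted p = 3.15e-12, edgeR quasi-likelihood test). Oas3 had 27.9, 22.2, 26.5 and 19.7 CPM and Oas2 had 1.99, 1.93, 2.01 and 0.989 CPM in the same libraries. Neither gene's Irgm_IFNAR-KO libraries came near the WT ranges given above.

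Oas1g was close to the limit of detection. It had 3, 2, 4 and 14 counts in the 4 Irgm_IFNAR-KO libraries, 23 in all, against 25157 counts in Irgm1-KO libraries and 5221 in WT libraries. At equal library size the level was 1118-fold lower than in Irgm1-KO cells (95% counting interval 745 to 1764) and 238-fold lower than in WT cells (159 to 376); these intervals cover counting error only. Irgm_IFNAR-KO replicate 4 gave 14 of the 23 counts. Without it 9 counts remained, and the level was 2144-fold lower than in Irgm1-KO cells (1129 to 4690.3) and 457-fold lower than in WT cells (241 to 1000.2). Its copy Oas1a kept 516, 372, 297 and 514 counts, or 8.40, 6.65, 5.33 and 8.92 CPM, in the same libraries. The split of counts between these copies is uncertain, since part of their sequence is shared.

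Oasl2 had the highest level per length of the family in Irgm_IFNAR-KO cells, 10.9 CPM per kb of exon, with 73.1, 67.4, 70.5 and 66.6 CPM in the 4 libraries. It was 6.09-fold lower than in WT cells. The smallest drops against WT were those of Oas1b, with 1.35, 1.25, 1.49 and 1.65 CPM in Irgm_IFNAR-KO libraries (log2 fold change -1.53 ± 0.122), and Oas1c, with 2.44, 2.23, 2.33 and 3.16 CPM (log2 fold change -1.86 ± 0.150).

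Set against Irgm1-KO cells, Irgm_IFNAR-KO cells had 8 of 8 genes lower, beside 21.3% of all genes, with a family median log2 fold change of -5.60 and 0.02 over all genes. Against WT cells 8 of 8 were lower too, beside 8.22% of all genes, with a family median of -3.79 and 0.01 over all. The adjusted p-values against WT ran from 2.05e-09 to 7.29e-06 (edgeR quasi-likelihood test). The 3 comparisons of this experiment share their libraries pairwise, so they do not support one another. Summed macrophage markers were 28455 to 39710.0 CPM in Irgm_IFNAR-KO libraries. Of the 7, 3 were higher and 3 lower than in Irgm1-KO cells (median log2 fold change 0.20), and against WT cells Cd68 and Fcgr1 were lower and 5 were not called (median 0.14). Neutrophil markers summed to 14.9 to 24.6 CPM, dendritic cell markers to 4.53 to 5.81 CPM and plasmacytoid dendritic cell markers to 264 to 310.1 CPM in Irgm_IFNAR-KO libraries. Their part was not tested.

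**Figure D2:**
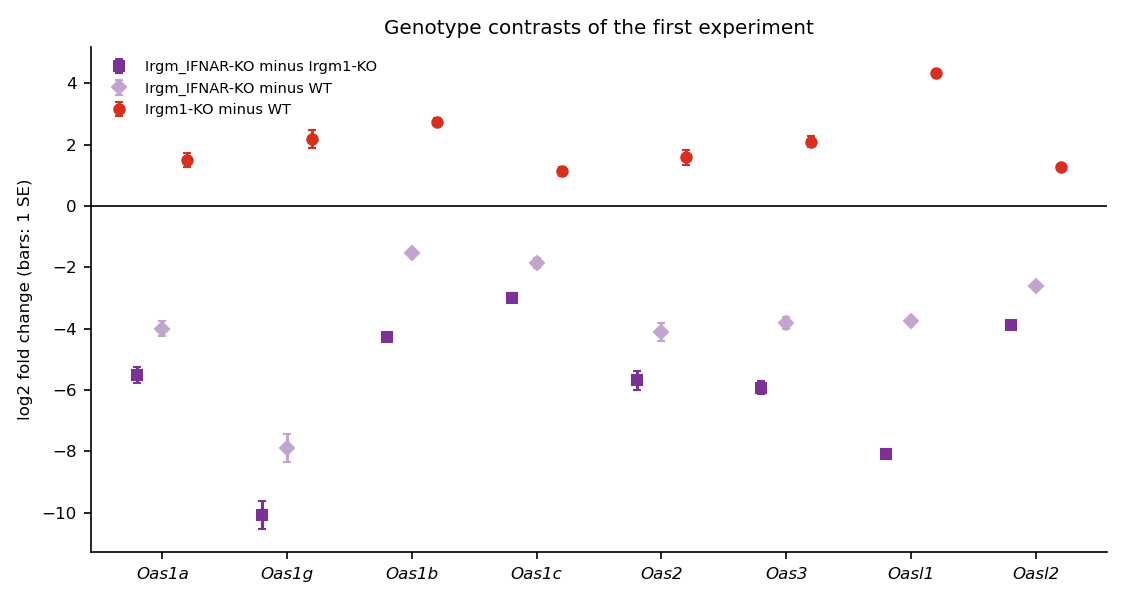
Log2 fold change of each gene in the first experiment, with bars of 1 SE; squares are Irgm_IFNAR-KO minus Irgm1-KO, diamonds Irgm_IFNAR-KO minus WT and circles Irgm1-KO minus WT. Oas1g has the lowest values of both receptor comparisons, -10.08 and -7.89, and Oasl1 the highest rise, 4.32.

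The order of levels between genes was read per length, as CPM per kb of exon. In WT cells Oasl2 and Oas1a led with 66.3 ± 8.34 and 62.4 ± 15.4 CPM per kb, which do not differ beyond their spread, followed by Oas3 with 48.3 ± 11.1; Oas1b was lowest with 2.08. In Irgm1-KO cells Oasl1 led with 273 ± 23.1 CPM per kb, and its share of the summed family level was 30.2 ± 2.11%, against 6.40 ± 0.369% in WT cells. In Irgm_IFNAR-KO cells Oasl2 made up 50.9 ± 2.23% of the family level, against 31.0 ± 3.62% in WT cells, and Oas1g was lowest. Summed over the 8 genes, the level was 21.4 ± 1.22 CPM per kb in Irgm_IFNAR-KO cells, 905 ± 24.3 in Irgm1-KO cells and 214 ± 4.52 in WT cells (SD, n = 4 each). With the longest transcript as the length, Oas3, Oasl1 and Oasl2 shared the lead in Irgm1-KO cells, with shares of 24.8%, 26.3% and 26.3%. In WT cells Oasl2 then led alone with 43.2%, ahead of Oas3 with 23.0% and Oas1a with 20.2%, so the order in WT cells depends on the length used.

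**Figure D3:**
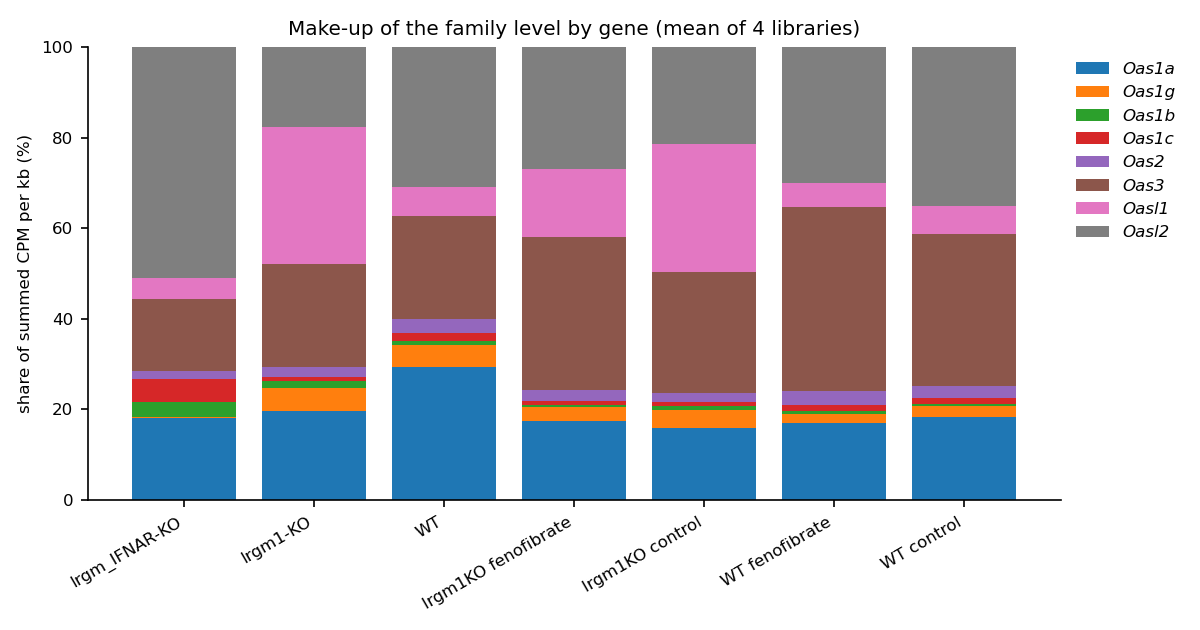
Share of each gene in the summed family level, in percent of CPM per kb of exon, as the mean of 4 libraries per group. The Oasl1 segment is widest in Irgm1-KO and Irgm1KO control cells, and the Oasl2 segment takes 50.9 ± 2.23% in Irgm_IFNAR-KO cells.

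The second experiment repeated the loss of Irgm1 in other libraries. Oasl1 had 714, 626, 529 and 643 CPM in Irgm1KO control libraries and 35.2, 29.9, 36.2 and 29.7 CPM in WT control libraries, 19.2-fold higher (log2 fold change 4.26 ± 0.142, adjusted p = 9.18e-12, edgeR quasi-likelihood test). Oas1b had 21.4, 16.5, 14.1 and 19.8 CPM in Irgm1KO control libraries and 2.23, 2.41, 2.61 and 2.10 CPM in WT control libraries, and Oas1g 85.1, 74.0, 69.3 and 82.9 CPM and 12.6, 10.4, 14.4 and 10.3 CPM. None of these groups overlapped. The log2 fold changes were 2.94 ± 0.139 for Oas1b, 2.71 ± 0.149 for Oas1g, 1.83 ± 0.0977 for Oas1a, 1.70 ± 0.0889 for Oas3, 1.59 ± 0.122 for Oas2, 1.30 ± 0.111 for Oasl2 and 1.21 ± 0.122 for Oas1c.

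All 8 were higher, beside 27.3% of all 15429 tested genes, with a median log2 fold change of 1.77 and 0.00 over all genes. Tested directly over all 28 libraries, the Irgm1 effect of the second experiment did not pass the threshold of difference from that of the first for any of the 8 genes. At an unadjusted p under 0.05 the count was 0 as well, and DESeq2 gave 0, while 6.25% of all genes were called in either direction. The largest gaps were 0.54 ± 0.292 for Oas1g and -0.37 ± 0.195 for Oas3 on the log2 scale (adjusted p = 0.322 and 0.299, edgeR quasi-likelihood test). Their standard errors leave room for differences of that size. Macrophage markers summed to 10492 to 12698 CPM in Irgm1KO control and 22004 to 30567 CPM in WT control libraries. Fcgr1 was higher, Adgre1, Csf1r, Lyz2 and Mertk were lower and 2 of the 7 were not called, with a median log2 fold change of -0.32. Neutrophil markers summed to 0.312 to 0.592 CPM in Irgm1KO control and 2.18 to 5.90 CPM in WT control libraries. Dendritic cell markers, mostly Xcr1, summed to 2.92 to 5.31 CPM in Irgm1KO control and 1.22 to 1.81 CPM in WT control libraries. Plasmacytoid dendritic cell markers, mostly Bst2, summed to 674 to 788 CPM in Irgm1KO control and 303 to 354 CPM in WT control libraries, while Siglech of the same list reached at most 0.0454 CPM in any library of this experiment. The part of these markers was not tested.

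In Irgm1KO cells fenofibrate lowered all 8 genes. Oasl1 had 121, 146, 101 and 115 CPM in Irgm1KO fenofibrate libraries, against the 529 to 714 CPM of Irgm1KO control libraries, a log2 fold change of -2.38 ± 0.130. Oas1b had 3.42, 3.39, 2.44 and 2.91 CPM in Irgm1KO fenofibrate libraries, against 14.1 to 21.4 CPM in control libraries. Its log2 fold change of -2.56 ± 0.136 was the largest drop in value (adjusted p = 2.18e-09, edgeR quasi-likelihood test). With single libraries left out it ran from -2.66 to -2.47, which overlaps the -2.50 to -2.30 of Oasl1. Oas1g had 22.0, 25.0, 17.6 and 21.7 CPM in Irgm1KO fenofibrate libraries, against 69.3 to 85.1 CPM in control libraries, a log2 fold change of -1.85 ± 0.144. Treated and control libraries were well separated for all 3 genes.

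The other 5 genes also fell, each by over 1 on the log2 scale. Oas1a had 106, 112, 88.4 and 101 CPM with fenofibrate and 275, 243, 225 and 275 CPM in Irgm1KO control libraries (log2 fold change -1.32 ± 0.0963). Oas3 had 749, 766, 693 and 732 CPM with fenofibrate and 1753, 1529, 1432 and 1759.7 CPM in Irgm1KO control libraries (log2 fold change -1.14 ± 0.0876). The log2 fold changes of Oas2, Oasl2 and Oas1c were -1.13 ± 0.121, -1.12 ± 0.110 and -1.10 ± 0.122. The count of 8 of 8 lower stands beside 22.2% of all genes called lower, and the family median of -1.23 beside 0.01 over all genes. With the replicate number as a block 8 of 8 were lower too, and lower calls over all genes numbered 4007, against 3427. Treated and control libraries did not overlap for any of the 8 genes, but the share of all genes without overlap was not computed. Macrophage markers summed to 14947 to 18350.0 CPM in Irgm1KO fenofibrate and 10492 to 12698 CPM in Irgm1KO control libraries. Cd68 and Lyz2 were higher, Adgre1, Csf1r and Fcgr1 were lower and 2 were not called, and the median log2 fold change of the 7 was -0.21, so the sum, led by Lyz2 (0.99 ± 0.197), went the other way from the median. Plasmacytoid dendritic cell markers summed to 415 to 481 CPM, dendritic cell markers to 1.44 to 1.90 CPM and neutrophil markers to 0.861 to 2.46 CPM in Irgm1KO fenofibrate libraries. The part of these markers was not tested.

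In WT cells the change with fenofibrate was small and passed the test for 4 of the 8 genes. That test, like the edgeR tests above, did not pair control and fenofibrate libraries by replicate number. Oasl2 had 346, 307, 403 and 288 CPM in WT fenofibrate libraries and 504, 434, 536 and 406 CPM in WT control libraries, with no overlap, and its log2 fold change was -0.48 ± 0.109 (adjusted p = 0.00260, edgeR quasi-likelihood test). Oas1g had 6.94, 7.23, 10.6 and 7.24 CPM with fenofibrate and 12.6, 10.4, 14.4 and 10.3 CPM in WT control libraries. Its log2 fold change of -0.58 ± 0.145 passed the threshold, though WT fenofibrate replicate 3 lay within the control range.

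Oasl1 also fell (-0.43 ± 0.127, adjusted p = 0.0152, edgeR), and this call depended on the setting. With library totals in place of trimmed-mean scaling its log2 fold change was -0.32 (adjusted p = 0.0517, edgeR), and without WT fenofibrate replicate 4 it was -0.37 (adjusted p = 0.0537, edgeR), both in the same direction but not past the threshold. Oas1a fell as well, with a log2 fold change of -0.35 ± 0.0954. For Oas1b the log2 fold change was -0.34 ± 0.139 (adjusted p = 0.0667), and with the replicate number as a block it passed (adjusted p = 0.0123, edgeR). Oas3 had 523, 444, 552 and 494 CPM with fenofibrate and 508, 442, 568 and 472 CPM in WT control libraries, which overlap throughout. The log2 differences of Oas3, Oas2 and Oas1c were 0.02 ± 0.0865, -0.03 ± 0.120 and -0.11 ± 0.122 and did not pass. In all 4 of 8 genes were lower, beside 16.9% of all genes, with a family median of -0.35 and 0.02 over all genes. With the replicate number as a block Oas1b was called lower too, and lower calls over all genes numbered 3241, against 2613 without it. Macrophage markers summed to 13915 to 22445 CPM in WT fenofibrate libraries and 22004 to 30567 CPM in WT control libraries. Cd68 was higher, Adgre1, Csf1r, Fcgr1 and Itgam were lower and 2 were not called, with a median log2 fold change of -0.52. Plasmacytoid dendritic cell markers summed to 326 to 387 CPM, dendritic cell markers to 0.275 to 0.485 CPM and neutrophil markers to 2.14 to 2.89 CPM in WT fenofibrate libraries. The part of these markers was not tested.

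The difference between the fenofibrate effects in Irgm1KO and WT cells was tested as an interaction, without pairing. It passed for all 8 genes in the lower direction, beside 14.7% of all genes. With the replicate number as a block all 8 passed too, and lower calls over all genes numbered 2943, against 2261. On the log2 scale the interaction was -2.22 ± 0.192 for Oas1b, -1.95 ± 0.179 for Oasl1 and -1.27 ± 0.202 for Oas1g, and it was smallest for Oasl2, at -0.63 ± 0.154 (adjusted p = 0.00552, edgeR quasi-likelihood test). Oas3 and Oas2, which did not pass in WT cells, had interactions of -1.15 ± 0.123 and -1.10 ± 0.170. The family median was -1.13, beside -0.00 over all genes.

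With fenofibrate most of the family stayed above the levels of WT cells. Against WT fenofibrate cells, 7 of 8 genes were still higher in Irgm1KO fenofibrate cells, beside 18.1% of all genes. Oasl1 kept the largest excess, with a log2 fold change of 2.32 ± 0.131, followed by Oas1g with 1.43 ± 0.146. Oas1c was the exception, with 0.22 ± 0.122 (adjusted p = 0.177, edgeR quasi-likelihood test). Against WT control cells 6 of 8 were higher, beside 25.9% of all genes. There Oasl1 had a log2 fold change of 1.89 ± 0.129, and Oasl2 and Oas1c did not pass, at 0.18 ± 0.109 and 0.11 ± 0.122. The call for Oas1b, at 0.38 ± 0.136, was lost without Irgm1KO fenofibrate replicate 1 or 2 or WT control replicate 1, 2 or 4, with adjusted p-values of 0.0571 to 0.101 (edgeR). These comparisons share their treated libraries with those above.

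**Figure D4:**
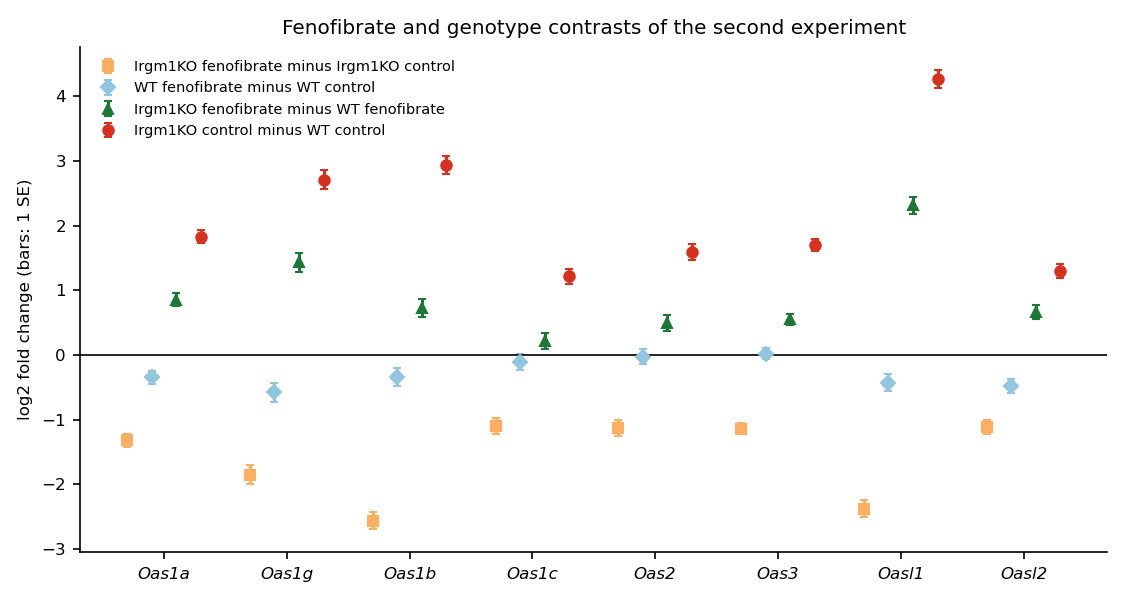
Log2 fold change of each gene in the second experiment, with bars of 1 SE; squares are the fenofibrate effect in Irgm1KO cells, diamonds that in WT cells, triangles Irgm1KO against WT with fenofibrate and circles Irgm1KO against WT without it. All 8 squares lie below their diamonds, and the triangles lie between 0 and the circles.

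Per length, Oasl1 also made up less of the family with fenofibrate: its share of the summed family level was 14.9 ± 0.968% in Irgm1KO fenofibrate cells, against 28.2 ± 1.25% in Irgm1KO control cells. Oas3 then led with 33.7 ± 1.84%. The summed level was 309 ± 29.6 CPM per kb in Irgm1KO fenofibrate, 852 ± 75.0 in Irgm1KO control, 175 ± 20.3 in WT fenofibrate and 209 ± 23.5 in WT control cells (SD, n = 4 each). With the longest transcript as the length, Oasl2 led in Irgm1KO fenofibrate cells with 37.0%, ahead of Oas3 with 34.0%.

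Because genes of one library share its depth, the ratio of their counts shows whether 2 relatives moved unequally. The ratios were chosen after the values were seen, so their p-values describe these libraries and add no separate evidence to the fold changes above. Oasl1 had 0.701 ± 0.0275 counts per Oasl2 count in Irgm1-KO libraries and 0.0857 ± 0.0144 in WT libraries (SD, n = 4 each). The exact two-sided permutation test on the log2 ratio gave p = 0.0286, the smallest that 4 against 4 libraries allow (adjusted p = 0.0533 over 28 such tests, which does not pass 0.05). In Irgm1KO fenofibrate libraries that ratio was 0.226 ± 0.0119, against 0.541 ± 0.0505 in Irgm1KO control libraries. The labels do not state pairing, but same-numbered control and fenofibrate libraries deviated together and were treated as pairs. The ratio was lower in 4 of 4 pairs (exact paired permutation p = 0.125, the smallest that 4 pairs allow, adjusted p = 0.175). In WT cells it was 0.0723 ± 0.00227 in WT fenofibrate and 0.0698 ± 0.00243 in WT control libraries, higher in 4 of 4 pairs at the same exact paired permutation p.

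Oas1b counts per Oas1a count were 0.203 ± 0.0522 in Irgm_IFNAR-KO, 0.0861 ± 0.0155 in Irgm1-KO and 0.0368 ± 0.0100 in WT libraries. The mean ratio was higher in both mutants than in WT cells, once on a fall and once on a rise of both genes. Oas1g counts per Oas1a count were 0.0130 ± 0.0102 in Irgm_IFNAR-KO, 0.330 ± 0.0158 in Irgm1-KO and 0.204 ± 0.0157 in WT libraries. The Irgm_IFNAR-KO value rests on 2 to 14 Oas1g counts per library. The split of counts between these copies is uncertain, since part of their sequence is shared. Each of the 4 differences of these ratios from WT gave the exact permutation p of 0.0286, with an adjusted p of 0.0533. By contrast, Oas2 counts per Oas3 count were 0.0475 ± 0.00378 in Irgm1KO fenofibrate and 0.0475 ± 0.00318 in Irgm1KO control libraries. The ratio of these enzymes gave the smallest possible p in 1 of 7 comparisons, that of Irgm1-KO with WT (log2 difference -0.48, exact permutation p = 0.0286, adjusted p = 0.0533).

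Of 3 further genes listed with the pathway, Akap7, whose enzyme degrades oligoadenylates, was higher in Irgm1-KO than in WT cells, with 14.1 to 16.1 CPM in Irgm1-KO and 10.3 to 10.8 CPM in WT libraries (log2 fold change 0.51 ± 0.0835). It was also higher in Irgm1KO control than in WT control cells (0.60 ± 0.0595) and lower with fenofibrate in Irgm1KO cells (-0.42 ± 0.0594). In WT cells Akap7 was higher with fenofibrate, by 0.25 ± 0.0595. Pde12, another such phosphodiesterase, rose slightly in both experiments (0.16 ± 0.0576 and 0.21 ± 0.0582). Abce1, a factor of ribosome recycling, did not pass in any of these comparisons.

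The 8 double-stranded RNA sensors and effectors of the list were Adar, Dhx58, Eif2ak2, Ifih1, Mavs, Rigi, Tlr3 and Zbp1. All 8 were higher in Irgm1-KO than in WT cells, beside 19.8% of all tested genes, with a median log2 fold change of 0.92. All 8 were also higher in Irgm1KO control than in WT control cells, beside 27.3% of all genes, with a median of 1.02. In Irgm_IFNAR-KO against WT cells 7 of 8 were lower, beside 8.22% of all genes, with Mavs, the adaptor, the exception at 0.26 ± 0.101. With fenofibrate 8 of 8 were lower in Irgm1KO cells, beside 22.2% of all genes, and 7 of 8 in WT cells, again without Mavs, beside 16.9%. Ifih1, the sensor MDA5, had 75.1 ± 4.85 CPM in Irgm_IFNAR-KO, 483 ± 37.5 CPM in Irgm1-KO and 143 ± 18.0 CPM in WT cells.

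Of 9 genes of the interferon signal, 5 were higher and 1 lower in Irgm1-KO against WT cells, where 19.8% of all genes were called higher. In Irgm1KO control against WT control cells 4 were higher and 1 lower, where 27.3% of all genes were called higher. Ifnb1, the interferon beta gene, had 10, 12, 13 and 36 counts in Irgm_IFNAR-KO libraries, 66, 103, 224 and 90 counts in Irgm1-KO libraries and 4, 10, 5 and 7 counts in WT libraries. It was higher in Irgm1-KO than in WT cells (log2 fold change 4.12 ± 0.520), while its difference between Irgm_IFNAR-KO and WT cells did not pass (adjusted p = 0.204, edgeR). With fenofibrate Ifnb1 had 14, 9, 7 and 19 counts in Irgm1KO libraries, against 238, 110, 104 and 163 counts in Irgm1KO control libraries. Irf7, the factor whose translation Oasl1 limits, had 28.7 ± 3.02 CPM in Irgm_IFNAR-KO, 2457 ± 362 CPM in Irgm1-KO and 462 ± 108 CPM in WT cells. All 9 genes were lower with fenofibrate in Irgm1KO cells, beside 22.2% of all genes, with a median log2 fold change of -0.40.

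**Figure D5:**
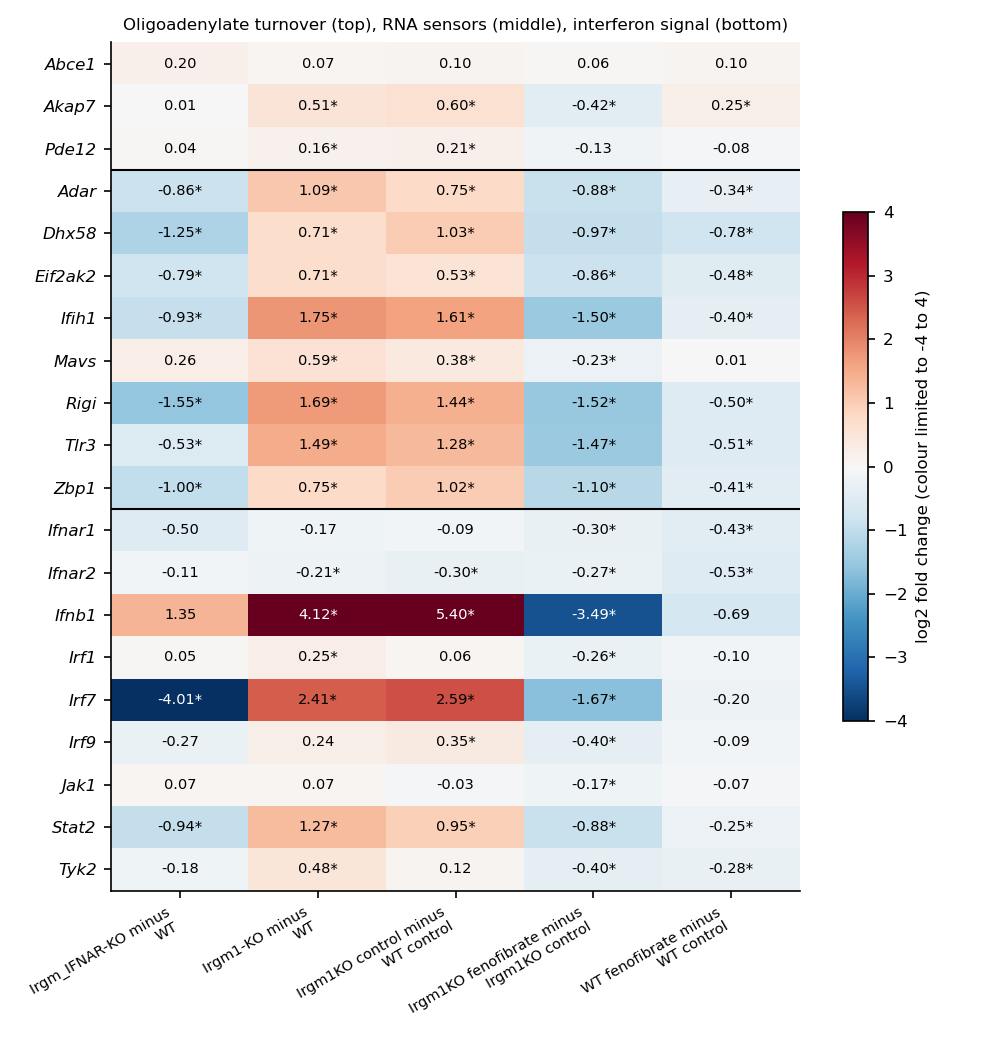
Log2 fold changes of oligoadenylate turnover genes, double-stranded RNA sensors and effectors, and interferon signal genes (rows) in 5 comparisons (columns); an asterisk marks an adjusted p under 0.05 in edgeR's quasi-likelihood test. All 8 sensors and effectors are positive in both Irgm1 comparisons, with medians of 0.92 and 1.02.

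The remaining Oas1 copies, Oas1d, Oas1e, Oas1f and Oas1h, were too low to be tested. Oas1d had 4, 11, 11 and 10 counts in Irgm1-KO libraries and 0, 1, 0 and 0 in WT libraries, and 13, 4, 5 and 5 counts in Irgm1KO control libraries and 1, 0, 0 and 0 in WT control libraries. It was not seen in the 4 Irgm_IFNAR-KO libraries, where 3 counts correspond to 0.0488 to 0.0538 CPM.

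Around the 8 genes, 29 further genes lie within 100 kb in the GENCODE M21 annotation, of which 6 were tested in the first experiment and 7 in the second. In Irgm1-KO against WT cells 1 of the 6 was higher and 1 lower. The higher one was Gm13822, annotated antisense and overlapping Oasl1, with 4.46 to 11.1 CPM in Irgm1-KO and 0.232 to 0.673 CPM in WT libraries; since the use of strand in counting is not given, its reads cannot be told apart from those of Oasl1. The lower one was 2210016L21Rik (-0.45 ± 0.102). In Irgm1KO control against WT control cells the calls among neighbours were Gm13822 and 1500011B03Rik higher and Ankrd13a and Sppl3 lower, with log2 fold changes of 3.90, 0.29, -0.52 and -0.54. With fenofibrate Ankrd13a and Sppl3 were lower in WT cells (-0.29 and -0.25). In Irgm1KO cells 2210016L21Rik and Rasal1 were higher (0.40 and 1.59) and Gm13822 lower (-1.95) with fenofibrate. In Irgm_IFNAR-KO cells Gm13822 was lower than in WT cells (-2.53) and lower than in Irgm1-KO cells (-6.56). Both 2210016L21Rik and Ankrd13a were higher in Irgm_IFNAR-KO than in Irgm1-KO cells (0.42 and 0.40).

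Likeness of pattern was measured as the root mean square difference of group means of log2 CPM over the 7 groups, centred within each experiment, among 9492 other tested genes of at least 5 CPM in some group, predicted genes left out. Within the family Oas2 and Oas3 were closest, at 0.133, and Oas1c and Oas1g farthest apart, at 2.06. Outside it, Ifi206 was the nearest gene to Oas1a, Oas2 and Oas3, at 0.228, 0.249 and 0.198. Next for these 3 came Pou3f1 and Tnfsf8 (0.319 and 0.354 for Oas1a), Tnfsf8 and Pou3f1 (0.319 and 0.375 for Oas2), and Irf7 and Pou3f1 (0.349 and 0.369 for Oas3). Oas1c was nearest to Lgals9 (0.109), Slfn5 (0.155) and Fabp3 (0.166). Oas1b was nearest to Nox1 (0.153), Phf11a (0.153) and Phf11d (0.207), and Oasl2 to Atp10a (0.235), Treml2 (0.253) and Rtp4 (0.258). Oasl1 was nearest to Ifi214 (0.430), Hsh2d (0.438) and Ccl7 (0.490). Oas1g had no gene as near, its closest being Ifi44 (0.714), Hsh2d (0.891) and Lipg (0.939). Its Irgm_IFNAR-KO mean rests on 2 to 14 counts per library, and part of its sequence is shared with Oas1a. The distances of Oas1g, that to Oas1c included, are therefore uncertain. All distances given here are descriptions over group means that share libraries.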

How the data were processed

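Each experiment has a table of unnormalized read counts by Ensembl gene, deposited by the authors. The tools named in the submitters' processing notes are fastp, STAR and DESeq2, and the build is GRCm39; the sources used here give no version, counting tool, annotation or strand setting. Read length was 100 cycles in the first experiment and 50 in the second, per the labels.

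Samples were grouped by title. Counts were analysed with edgeR 4.0.16 (R 4.3.3): filterByExpr (minimum count 10, total 15), trimmed-mean scaling (TMM), a robust quasi-likelihood fit over all libraries of an experiment (12 and 16), and Benjamini-Hochberg adjustment over all tested genes at 0.05. The Irgm1 effects of both experiments were contrasted in 1 fit of 28 libraries. CPM use the scaled totals; CPM per kb divide by exon length in GENCODE M21. Scripts were tested on simulated data.

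The 8 genes and all gene lists were chosen with earlier results of these data known, and every one of the 8 is described; 2 genes of the wider lists are not reported here. The ratio tests (exact permutation over libraries, by sign flips within pairs where control and fenofibrate libraries of a genotype are compared) and the remarks on single libraries were chosen after the values were seen. Same-numbered control and fenofibrate libraries of one genotype deviated together (correlations of 0.261 to 0.371 in Irgm1KO and 0.380 to 0.488 in WT). They were therefore treated as pairs in the ratio tests, though the labels do not state pairing. No other groups deviated together in this way. The alternatives were DESeq2 1.42.0, unscaled library totals, another filter, Xist as a covariate, the replicate block, fits of the compared groups only, another gene length and each library left out. Promoter sequences are RefSeq's (GRCm38.p6); coordinates of the files' build were not used.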

Additional observations from a re-analysis of the deposited data

Results flagged for a closer look

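In 3 of 56 gene and group combinations of 4 libraries, 1 library lay far from the other 3; chance flags about 1 in 20 such groups. Oas1g in Irgm1-KO replicate 3 was at 162 CPM, against 90.0 to 99.0 CPM in the other 3. Oas1g in WT fenofibrate replicate 3 was at 10.6 CPM, against 6.94 to 7.24 CPM. Oas2 in Irgm_IFNAR-KO replicate 4 was at 0.989 CPM, against 1.93 to 2.01 CPM. No call of the 8 genes in the first experiment was lost without Irgm1-KO replicate 3 or Irgm_IFNAR-KO replicate 4.

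The effect of fenofibrate differed between genotypes for every one of the 8 genes, by the interaction test of edgeR. All 8 were called lower, beside 14.7% of all genes. The fenofibrate effect in Irgm1KO cells minus that in WT cells was -0.97 for Oas1a, -2.22 for Oas1b, -0.99 for Oas1c and -1.27 for Oas1g on the log2 scale. It was -1.10 for Oas2, -1.15 for Oas3, -1.95 for Oasl1 and -0.63 for Oasl2.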

How the results depend on the processing

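Of 1560 recomputed values of the 8 genes under other settings, 1524 kept direction and call, 7 lost the call, 2 gained it and 27 changed sign, all of the last among differences that did not pass. All 576 values of the 3 comparisons of the first experiment and of Irgm1KO control against WT control kept both. Sign changes in WT fenofibrate against WT control were 0.00374 for Oas1c and 0.0864 for Oas2 with unscaled library totals, and 0.0313 for Oas2 with Xist as covariate. Between the Irgm1 effects of the experiments they were -0.0683 for Oas2 and -0.0300 for Oasl2 with Xist. Leaving out single libraries gave -0.114 to 0.0529 for Oas2 and -0.0437 to 0.0790 for Oas3 in WT fenofibrate against WT control, -0.00242 to 0.173 for Oas1c in Irgm1KO fenofibrate against WT control, and -0.144 to 0.192 for Oas2, -0.0401 to 0.110 for Oasl2 and -0.110 to 0.0352 for Oasl1 between the Irgm1 effects. With the replicate block Oas1b passed in WT cells with fenofibrate (log2 fold change -0.34, adjusted p = 0.0123, edgeR); the block changed no other call, and no other groups could be paired. Unscaled totals put the median log2 fold change of all genes at 0.127, against 0.02 with scaling, in WT fenofibrate against WT control, where calls over all genes then split into 4389 higher and 1571 lower, against 2794 and 2613. In the interaction they split into 1447 and 2967, against 2304 and 2261. The share of calls that were higher became 40.8%, against 54.3%, in Irgm1KO fenofibrate against WT fenofibrate, 63.7%, against 53.6%, in Irgm1KO fenofibrate against WT control, and 71.4%, against 61.0%, between the Irgm1 effects, where lower calls numbered 229, against 369. Xist as covariate gave 4268 genes higher, against 2767, in Irgm1-KO against WT, 4679, against 3014, in Irgm_IFNAR-KO against Irgm1-KO, and 2208 higher and 2229 lower, against 552 and 1150, in Irgm_IFNAR-KO against WT. In the last, higher calls numbered 834 with DESeq2 and from 337 with single libraries left out. Between the Irgm1 effects DESeq2 gave 595 lower, and leaving out single libraries gave up to 1096 higher and 737 lower, against 576 and 369. A fit of the compared groups only gave 1782 higher, against 2792, in Irgm1KO fenofibrate against WT fenofibrate; the interaction has no such fit. With the longest transcript as length, 47 of 56 family shares moved by over 1 SD. With pairs ignored, 18 of the 28 ratio tests reached the smallest p and an adjusted p of 0.0444 (exact permutation tests), against 15 at an adjusted p of 0.0533 with pairs kept, an analysis chosen after seeing the data. Leaving out each Irgm_IFNAR-KO library in turn, also chosen after seeing the data, put summed Oas1g counts 928- to 2144-fold below Irgm1-KO and 198- to 457-fold below WT cells, the upper values without replicate 4. The causes were not tested. Depth limits Oas1g in Irgm_IFNAR-KO cells (2 to 14 counts) and Oas1d.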

Other observations

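Within each genotype of the first experiment, 1 library had the highest Oas1g and the lowest Oas2 and Oas3: Irgm_IFNAR-KO replicate 4, Irgm1-KO replicate 3 and WT replicate 2. Their Oas1g deviations from the group mean were 1.27, 0.60 and 0.58 on the log2 scale. Those of Oas2 were -0.73, -0.30 and -0.73, and those of Oas3 were -0.28, -0.34 and -0.46. Oasl1 deviated by 0.10, -0.13 and 0.03 in the same libraries. These were also the lowest libraries of their groups on the first axis of within-group variation, which held 53.8% of it, and the lowest in Xist, with log2 deviations of -0.62, -0.57 and -1.21. The libraries were singled out after their values were seen, and what they share was not tested.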
